A study of Mus musculus with 2 samples.

Results

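The cells described here came from the aorta-gonad-mesonephros region (AGM) of wild-type C57Bl/6 mouse embryos at embryonic day 9.5 (E9.5) and were sorted as VE-cadherin negative. VE-cadherin, encoded by Cdh5, is the junction protein that marks endothelium, so this gate holds what surrounds the aortic endothelium. The members were the wells of the E9.5 count table whose deposited annotation names the AGM and the VE-cadherin-negative gate and that had counts in at least 500 genes. All 354 of the 354 wells so annotated passed, of 2644 sorted wells kept in the whole series. The series holds 8 sorted pools from AGM and yolk sac, at E9.5 and E11.5, in VE-cadherin-positive and VE-cadherin-negative gates of live cells, dispensed as single cells on 2 ICELL8 nanowell chips, 1 chip for each stage. The 3 other pools used for comparison below are the E9.5 AGM VE-cadherin-positive pool (299 wells), the E9.5 yolk sac VE-cadherin-negative pool (305 wells) and the E11.5 AGM VE-cadherin-negative pool (338 wells). All came from wild-type embryos, and no treatment is named. Each population was sorted in bulk before dispensing, and the number of embryos behind it is not given in the sources used here. Each pool is therefore treated as 1 sample, its wells are not replicates, and no p-value is given.

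At this stage the tissue around the dorsal aorta holds loose mesenchyme, the somites on either side, the neural tube above and the intermediate and lateral mesoderm. Mesenchymal cells make collagens and proteoglycans and carry the platelet-derived growth factor receptor Pdgfra. Somites give muscle, dermis and axial skeleton under factors such as Meox1 and Pax3, and neural progenitors of the tube keep Nes, Msi1 and Pax6 on. Retinoic acid made by paraxial mesoderm, with its binding proteins Crabp1 and Crabp2, and the Hox genes pattern this region along the body axis.

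The pool held 1699711 counts. A well had from 2273 to 13109 counts, with a median of 4396, and from 1124 to 4123 genes, with a median of 1814. Mitochondrial counts were at a median of 4.00% of a well and at most 9.86%. Haemoglobin counts were present in all 354 wells, at 1.64% to 16.2% with a median of 4.54%, and the non-coding RNA gene Gm42418 took a median of 13.2%. The 48 wells of the E9.5 chip dispensed without a cell had a median of 124.5 counts, of which haemoglobin took a median of 23.6%, so red cell RNA was also present where there was no cell. Of the pool's well barcodes, 108 also occur on the E11.5 chip. The chips share 473 barcodes in all, and none repeats within a chip.

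The 5 genes taken as markers of this pool were all far above their levels in the VE-cadherin-positive pool of the same tissue. Levels are given as CPM, a gene's counts scaled to 1000000 counts of the pool's sum, with exact 95% Poisson intervals, which cover counting error only. Crabp1, which binds retinoic acid in the cytoplasm (chromosome 9, 54764748 to 54773110, plus strand; all positions are GRCm38 in GENCODE M21), stood at 424 CPM (393 to 456) against 8.94 (5.21 to 14.3) in the VE-cadherin-positive pool. Pdgfra (chromosome 5, 75152292 to 75198215, plus strand) stood at 112 CPM (97 to 129), while the VE-cadherin-positive pool had 1 count of it, 0.526 CPM. Hoxa7 (chromosome 6, 52214491 to 52221854, minus strand) stood at 72.4 CPM (60.1 to 86.3) against 14.7 (9.78 to 21.3). The basic helix-loop-helix factor Twist1 (chromosome 12, 33957671 to 33959829, plus strand) reached 41.8 CPM (32.6 to 52.7) against 3.15 (1.16 to 6.86). The homeobox factor Prrx1 (chromosome 1, 163245119 to 163313710, minus strand) reached 40.01 CPM (31.1 to 50.7) against 1.05 (0.127 to 3.80). Cdh5 went the other way, at 14.7 CPM here and 437 CPM in the VE-cadherin-positive pool, as the gate requires. In bulk sums of this kind, fewer cells of a type and less RNA per cell cannot be told apart.

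**Figure D1:**
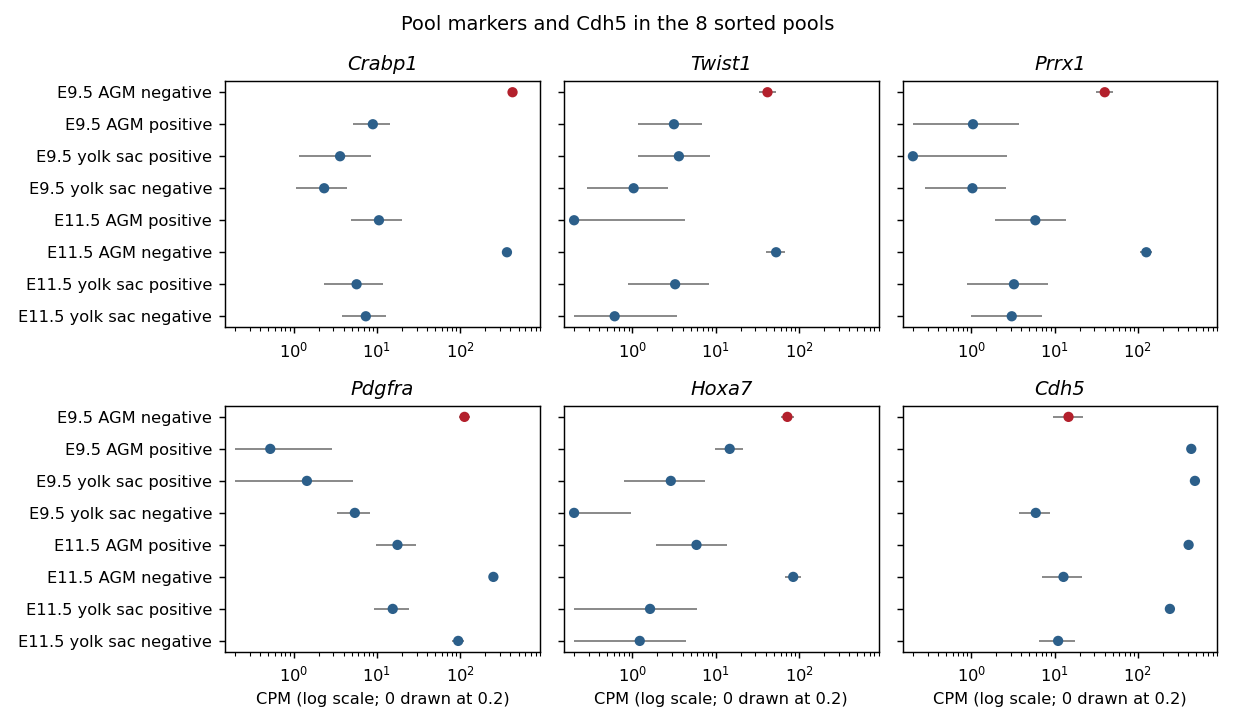
Levels of the 5 pool markers and of Cdh5 in the 8 sorted pools, in CPM on a log axis with a level of 0 drawn at 0.2. Points are summed pools, bars exact 95% Poisson intervals, and the red point is the E9.5 AGM VE-cadherin-negative pool; Crabp1 is at 424 CPM here and 363 CPM in the E11.5 AGM VE-cadherin-negative pool, and at or below 10.6 CPM in the other 6 pools.

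All 5 genes also had counts in the VE-cadherin-negative AGM pool of E11.5. There Crabp1 was at 363 CPM (328 to 401), Twist1 at 53.0 (40.3 to 68.6) and Hoxa7 at 85.0 (68.6 to 104). Prrx1 at 126 CPM (106 to 149) and Pdgfra at 250 CPM (221 to 281) were higher there than at E9.5, with intervals apart. Pdgfra was not limited to the AGM, with 94.4 CPM in the E11.5 yolk sac VE-cadherin-negative pool. The E9.5 yolk sac VE-cadherin-negative pool had Crabp1 at 2.33 CPM, Pdgfra at 5.44, Twist1 and Prrx1 both at 1.04 and no Hoxa7 count (0 of 3862642 counts).

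Per well, these markers were seen singly more often than together. To compare wells at equal depth, 2000 counts were drawn at random from each well, and 10 further draws gave the range due to the draw. At that depth Crabp1 had a count in 187 of 354 wells (48.9% to 59.3% over the further draws), Pdgfra in 57, Hoxa7 in 50, Twist1 in 30 and Prrx1 in 27. In the VE-cadherin-positive AGM pool thinned the same way, 3.04% of 296 wells had Crabp1 and 0.338% had Pdgfra. None of the 5 markers was found in 101 wells, 1 of them in 168, 2 in 72 and 3 in 13. No well had 4 or 5 in this draw, and at most 1 well had 4 in any of the further draws. Twist1 and Pdgfra shared 12 wells, with a Pearson r of 0.18 across wells, but the r ran from -0.0013 to 0.18 and the shared wells from 6 to 11 over the further draws. The other 9 pairs of markers had r between -0.09 and 0.01. Pdgfra was in 16.6% of wells with Crabp1 and 15.6% of wells without it, and Hoxa7 in 13.9% and 14.4%. For Prrx1 the shares were 8.02% and 7.19%, and for Twist1 7.49% and 9.58%. With each marker detected in so few wells, single detection is common even where markers do not depend on each other. The counts therefore do not place the markers in separate cells.

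Lists of cell type markers gave the levels of genes known from each tissue. Some members are used by several tissues, so a list's sum does not show how much RNA a tissue contributed. The 15 mesenchyme genes summed to 923 CPM and all had counts. Their largest parts were the proteoglycan versican (Vcan), at 344 CPM in 237 wells before thinning, then Pdgfra, and the fibrillar collagens Col3a1 at 111 CPM, Col1a2 at 53.0 CPM and Col1a1 at 38.8 CPM. Of thinned wells, 142 had at least 2 mesenchyme genes (137 to 154 over 11 draws), 57 had at least 3 and 25 had at least 4. The limb bud list, at 594 CPM, was made mostly of the homeobox genes Meis2 (321 CPM) and Meis1 (209 CPM), which trunk mesoderm and neural tissue also use.

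Somite genes came to 347 CPM. Meox1, a homeobox gene of early somites, had counts in 112 wells (84.7 CPM), Pax3, of dermomyotome and dorsal neural tube, in 77 wells (68.8 CPM), Ebf3 in 63 wells, Eya1 in 59 wells and Foxc1 in 45 wells. After thinning 43 wells (33 to 53 over draws) had at least 2 somite genes and 5 had at least 3. Of the 10 sclerotome genes, 6 had a row in the E9.5 count table, and a gene without a row could not be counted. The sclerotome list held little apart from the cartilage collagen Col2a1 at 73.0 CPM, with 6 thinned wells at 2 genes or more. Tail bud and presomitic mesoderm genes, of which 9 of 12 had a row, came to 15 counts in all, and no thinned well had 2 of them. A count of 0 of 354 wells allows up to 0.847% of wells with 2 such genes detected at this depth, which is not a limit on the share of cells of that kind.

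Neural progenitor genes, of which 10 of 12 had a row in the count table, summed to 415 CPM. The RNA-binding protein Lin28b, which many tissues of the early embryo also express, gave 132 CPM in 154 wells. The intermediate filament nestin (Nes) gave 94.7 CPM in 111 wells, Prom1 was seen in 59 wells, Irx3 in 58 and Msi1 in 53. Nes does not separate neural cells here, since the VE-cadherin-positive pool had 97.8 CPM. The neural tube factors Pax6 and Olig2 had 39 and 32 counts here and 0 counts in the VE-cadherin-positive pool. Neuron genes summed to 240 CPM, led by the neurofilament Nefm at 45.3 CPM in 61 wells. At least 2 genes were seen in 67 thinned wells for neural progenitors (51 to 67 over draws) and in 23 for neurons (18 to 27).

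Wells with 2 markers of other tissues were few. Smooth muscle genes had at least 2 members in 12 thinned wells, skeletal muscle genes in 11, and neural crest, surface ectoderm and intermediate mesoderm genes in 6, 8 and 3. The actins Actc1 (81 wells) and Acta2 (76 wells) and Tagln (80 wells) had counts before thinning. Gut endoderm, notochord and mesothelium genes reached 2 members in no thinned well of this draw, with 6 of 8 notochord genes having a row in the count table. Of genes for cells the gate should lack, the 12 endothelium genes summed to 70.6 CPM against 2062 CPM in the VE-cadherin-positive pool, and the 12 macrophage genes to 53.0 CPM with 6 of the 12 at 0. The erythroid list reached 42173 CPM, nearly all from the embryonic and adult globins Hbb-y, Hba-x, Hbb-bh1, Hba-a1 and Hba-a2.

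At this depth the largest tissue lists spread somewhat more between wells than random counting gives. The variance of a list's counts per thinned well divided by its mean is 1 where wells differ by random counting alone. Mesenchyme genes had a ratio of 1.28 to 1.62 over 11 draws. Somite genes had 1.18 to 1.47, neural progenitor genes 1.08 to 1.36, neuron genes 1.25 to 1.96 and Hox genes 0.972 to 1.11. Matrix genes, a list of collagens, laminins, proteoglycans and microfibril proteins, spread further, at 1.98 to 2.34, and the erythroid list furthest, at 6.63 to 7.25. Genes of G2 and M phase had 1.64 to 2.05 and S phase genes 0.956 to 1.20. The ratio depends on the level, since a list with few counts per well stays near 1 even where wells differ. Mean counts per thinned well were 1.71 to 1.85 for mesenchyme, 0.619 to 0.712 for somite, 0.737 to 0.890 for neural progenitor and 0.444 to 0.523 for neuron genes. Ratios near 1 at such means therefore do not show that wells were alike. A relative spread, the ratio less 1 divided by the mean, takes the level out and is 0 for random counting alone. It was 0.157 to 0.355 for mesenchyme, 0.272 to 0.716 for somite and 0.102 to 0.410 for neural progenitor genes. Neuron genes had 0.520 to 1.84 and matrix genes 0.151 to 0.207. All were above 0 in each of the 11 draws. These ranges cover the random draw only, not the error from a limited number of wells. Molecules and PCR copies cannot be told apart here, so a spread above 0 need not be a difference between cells.

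Compared with the E11.5 AGM VE-cadherin-negative wells at the same 2000 counts, which 251 of 338 reached, the relative spread was lower at E9.5 for some lists and overlapped for others. Here overlapped and apart refer to ranges over the draws alone, which leave out the error from the number of wells. The mesenchyme ratio was higher at E11.5, 2.26 to 2.67, and so was the matrix ratio, 3.73 to 4.02, but so were their levels, at 6.07 to 6.33 and 18.5 to 19.5 counts per well. Their relative spreads overlapped with those at E9.5, at 0.205 to 0.272 for mesenchyme and 0.143 to 0.158 for matrix genes. Somite and neural progenitor genes overlapped as well. Neuron genes were apart, at 3.06 to 5.50 in the E11.5 wells, and skeletal muscle genes at 15.6 to 21.6 there against 0.896 to 2.94 at E9.5. Genes of G2 and M phase were also apart, at 0.490 to 0.599 against 0.0322 to 0.0537, although their mean was lower at E11.5, 9.19 to 9.55 against 19.03 to 19.8 counts per well. S phase genes had 0.260 to 0.387 against -0.00866 to 0.0402. Stage and chip are the same split. Over single genes the median ratio was 1.05 in this pool, with 4.06% of 5391 genes above 1.5, and 1.17 with 15.3% of 5875 genes above 1.5 in the E11.5 pool. That gap was shared by the other gates and tissue: the 4 E9.5 pools had medians of 1.02 to 1.05 and the 4 E11.5 pools 1.14 to 1.17, so it is not particular to the AGM VE-cadherin-negative gate, and stage and chip cannot be told apart. Ratios near 1 were not a property of every list on the E9.5 chip. The E9.5 yolk sac VE-cadherin-negative wells had a mesenchyme ratio of 5.02 to 8.92 and a matrix ratio of 8.13 to 14.01. When wells of both E9.5 AGM gates were put together, endothelium genes had a ratio of 3.42 and mesenchyme genes 2.14. The gates were sorted apart and differ in these lists, so a raised ratio in the mixture was given beforehand. It says nothing about differences among wells of 1 gate.

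**Figure D2:**
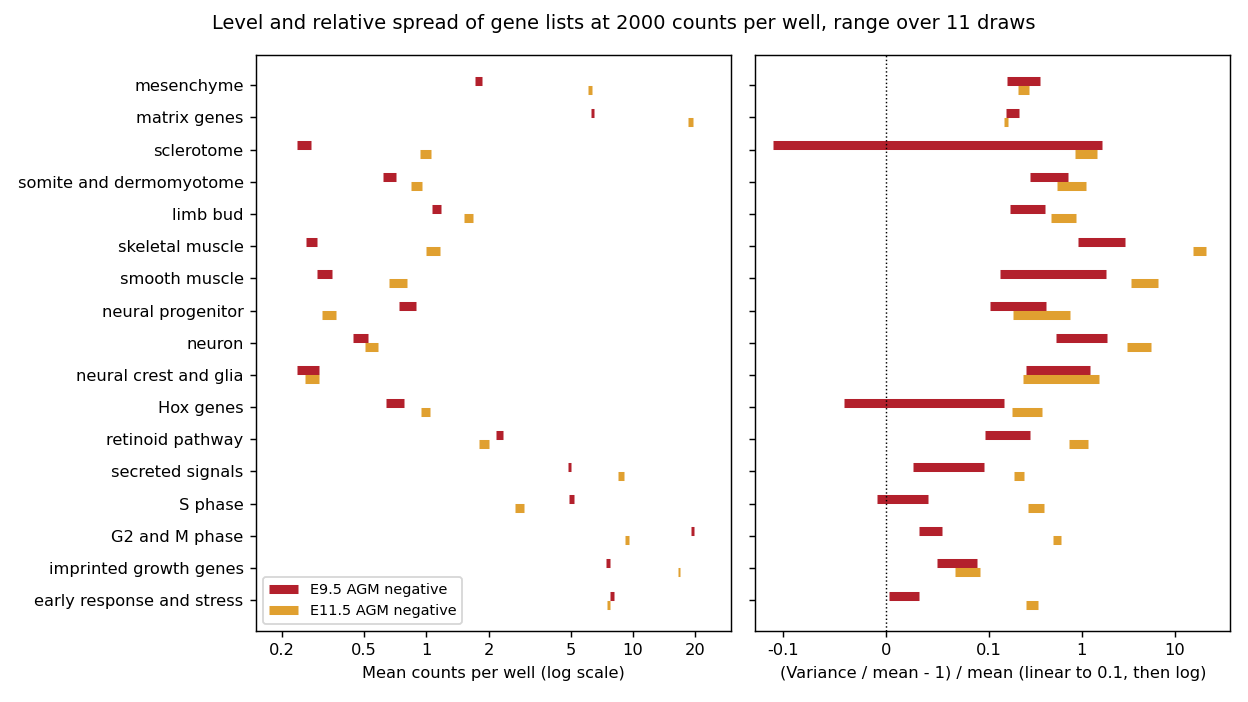
Mean counts per well of each gene list (left, log axis) and its relative spread, the variance-to-mean ratio less 1 divided by the mean (right, axis linear up to 0.1 and logarithmic beyond), with wells thinned to 2000 counts; each bar spans 11 random draws and the dotted line at 0 is random counting. Mesenchyme, matrix, somite and neural progenitor genes overlap on the right between the E9.5 (red) and E11.5 (yellow) AGM VE-cadherin-negative wells, while skeletal muscle genes span 0.896 to 2.94 in red and 15.6 to 21.6 in yellow.

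Clustering gave no group of wells that could be named as a cell type. Leiden clustering on 2000 variable genes, without the globin, mitochondrial, ribosomal protein, Hox, retinoid, secreted signal, cell cycle, imprinted and stress genes, gave 7 clusters of 46, 64, 39, 50, 83, 24 and 48 wells. None had a cell type marker among its 10 leading genes. Several leading genes owed their place to 1 well. In the 39-well cluster Cdh23, at 6.06-fold of the other wells, had 34 counts, of which 24 were in 1 well, and in the 46-well cluster Smyd3 had 26 of its 45 counts in 1 well. The 24-well cluster met the number of neuron markers that the naming rule asks for (Elavl4, Map2, Onecut2, Nefm and Isl1), but its leading genes were Osgep, Prkce, Med24, Ubxn4, Xist and Greb1l, and it remained unnamed. In 3 other settings 1 cluster took a name, neural progenitor-like with 10 principal components and in a reclustering of wells of high long-gene share, and mesenchyme-like at resolution 3.

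The largest cluster, of 83 wells, held deeper wells with more of their counts in long genes. Its wells had a median of 6127 counts and 2460 genes, against 4114 counts and 1696 genes in the other 271 wells. Genes whose annotated span is 100 kb or more, which carry long introns, took a median of 20.1% of its counts (11.9% to 29.2%) against 13.3% (9.72% to 18.9%). Haemoglobin took 3.20% against 4.76%. Its 6 leading genes were Xkr6, the chondroitin sulphotransferase Chst11, the factor Klf12, the calcium channel subunit Cacna2d1, the SMAD co-repressor Ski and Uri1, at 4.30-fold to 5.03-fold of the other wells. Lists of some tissues stood above the other wells in it and others below. The median log2 ratio was 0.99 for somite, 0.80 for limb bud (3 genes) and 0.50 for mesenchyme genes, against 0.23 over all genes. Neural progenitor genes, at 0.31, and neuron genes, at 0.30, were near that value. Lists below included smooth muscle at -0.50, surface ectoderm at -0.39, germ cell at -0.78 and macrophage at -1.71, each over 4 or fewer tested genes. These lists took part in the clustering, so the values are a description. When wells were thinned to 2000 counts before clustering, the cluster nearest to it shared 39 of its 83 wells (47.0%). The part of depth and of long-gene share in this cluster was not tested.

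**Figure D3:**
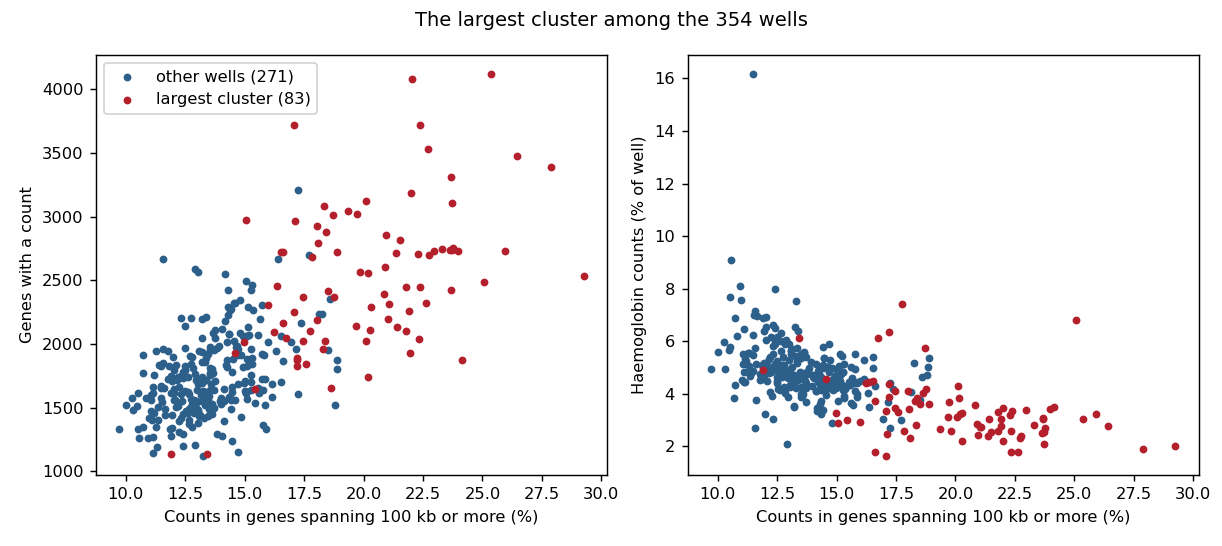
Share of a well's counts in genes of 100 kb or more (x axis, %) against genes with a count (left) and haemoglobin counts (right, % of the well); each point is 1 of 354 wells and red points are the 83 wells of the largest cluster. Red wells have a median of 2460 genes and 3.20% haemoglobin, and the other wells 1696 genes and 4.76%.

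The 7 gene lists kept out of the clustering could be described across it. Levels were summed over the wells of each group and divided by the total without globin, mitochondrial and Gm42418 counts. Over all 8079 genes with at least 20 counts, 16% were at least 2-fold higher in the 83 wells and 5.67% at least 2-fold lower, and the median log2 ratio of all genes was 0.23. Of 112 genes of the left-out lists that were tested, 15 were higher and 1 lower, so the higher genes were no more frequent than over all genes. Secreted signals gave 8 of 25 higher: the axon guidance molecules Slit2 (log2 ratio 1.62, interval 1.14 to 2.11), Ntn1 (1.18, 0.66 to 1.71), Sema3c (2.38, 1.20 to 3.69) and Efna5 (1.59, 1.30 to 1.88), the growth factor Nrg1 (1.24, 0.85 to 1.63), the Wnt inhibitor Sfrp1 (1.40, 0.53 to 2.29), and Bmp5 and Fst, whose intervals reach below 0. Of these 8, Slit2, Ntn1, Sema3c, Efna5, Nrg1 and Bmp5 are themselves genes of 100 kb or more, and Sfrp1 and Fst are not. Angpt1 is also that long and was not higher. The part of gene span in these ratios was not tested. Bmp4 was the lower one, at -1.33 with an interval from -3.06 to 0.07. The niche signals Kitl, Cxcl12 and Angpt1, known from blood stem cell support, stood at log2 ratios of 0.46, -0.28 and -0.15, each with an interval that includes 0.

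Imprinted growth genes gave 4 of 18 higher: Peg10 (log2 ratio 1.00), Plagl1 (1.48), Zim1 (1.72) and the non-coding Rian (1.05). H19 stood at 0.40 and Igf2 at -0.0024. None of 10 retinoid genes (median log2 ratio 0.07) and none of 18 S phase genes passed 2-fold. Crabp2 was nonetheless lower in the 83 wells (391.7 against 651.5 CPM, log2 ratio -0.73, interval -0.996 to -0.48), as was Crabp1 (-0.40, -0.65 to -0.16), and they set the sign of the retinoid sum, at -0.36. Among 20 genes of G2 and M phase only the motor gene Kif20b passed upwards, at 1.03. The chromatin gene Hmgb2 stood at -0.998 (-1.07 to -0.93) and gave 8652 of the list's 12248 counts in the other wells. The list's median was 0.03 and the ratio of its sums -0.52. Mki67 and Top2a, the usual proliferation markers, were at 0.54 and 0.47. Of 9 Hox genes, Hoxb3 was at 1.01 (0.22 to 1.80) and Hoxa7 at -0.81 (-1.51 to -0.17). In 13 stress genes 1 was higher. The long-gene share of the groups, given above, moved with these counts, and its part was not tested.

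The largest module of correlated genes was made of globin, ribosomal protein and housekeeping genes. Among 5856 genes with a count in at least 15 thinned wells, 342 pairs reached a Pearson r of 0.3, which is 0.00199% of pairs, and 152 of them held a globin, mitochondrial or ribosomal protein gene. Average linkage gave 6 modules with 65 genes. The first had 35 genes: 4 globins (Hbb-y, Hbb-bh1, Hba-x and Hba-a1), 21 ribosomal protein genes, 3 unnamed genes, and Hmgb2, Gapdh, Mif, Ppia, Cox8a, Txn1 and Ubb. Its sum per well ran from 96 to 392 counts of 2000 with a median of 259. Across wells it had an r of -0.83 with the long-gene share and of 0.76 with the haemoglobin share, of which it holds the main genes. With a well's counts before thinning it had an r of -0.68, so at equal depth the module still moved with the original depth. Its mean pairwise r was 0.25 here, 0.20 in the E11.5 AGM VE-cadherin-negative wells, 0.19 in the E9.5 AGM VE-cadherin-positive wells and 0.06 in the E9.5 yolk sac VE-cadherin-negative wells. The second module joined Gm42418 with Lars2, Cmss1, Gphn, Camk1d, Mir6236 and 2 unnamed genes, and another joined 5 mitochondrial RNAs. Their mean r was 0.30 and 0.35 here, and between 0.34 and 0.39 in the E9.5 AGM VE-cadherin-positive and E11.5 AGM VE-cadherin-negative wells. In the yolk sac wells it was 0.22 and 0.16. The sum of the Gm42418 module had an r of 0.44 with a well's counts before thinning, and that of the mitochondrial module 0.02. The other 3 modules, such as Malt1 with Tmem63b and Atg7 with Lmbrd2, held genes with counts in 15 to 32 wells. Their mean r of 0.25, 0.30 and 0.25 fell to 0.06, 0.02 and 0.04 when the 2, 1 and 1 wells with at least 3 counts of a member were left out, and they had mean r between -0.04 and 0.03 in the other pools.

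No tissue marker set as an anchor had a partner in this draw. Some list members not set as anchors did, such as the somite gene Ebf3 at an r of 0.33 over 9 shared wells. Of 16 genes set as anchors, 8 were in enough thinned wells (Crabp1, Twist1, Prrx1, Pdgfra, Hoxa7, Meox1, Pax3 and Nes), and none had a gene at r of 0.3 or more. The highest value was 0.28, for Pax3 with Dusp16. Over 10 further draws from 0 to 2 anchors had such a partner, with the highest r from 0.26 to 0.33. Within lists the mean r was 0.03 for 11 mesenchyme genes, 0.03 for 6 somite genes, 0.03 for 7 neural progenitor genes and -0.01 for 6 Hox genes. In counts this sparse such values are no finding.

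Without thinning, with counts scaled per 10000, 1638 pairs reached 0.3 and 11 modules appeared, and 2 of these were small groups around Rfx4 and Elavl4. Others as small included a group with Fbxl2, Cfap74 and Batf2, at a mean r of 0.24, and 1 with Lmbrd2 and Hipk3, at 0.25. Mean r in the wells that chose a group follows in part from the r used to form it. Leaving out wells with high counts, as above, was not done for these groups. The group around Rfx4, a factor of the neural tube, held Tox3, Adgrv1, Fgf14 and the synaptic adhesion gene Nlgn1 as well, at a mean r of 0.27. Rfx4 had counts in 40 wells, Tox3 in 34, Fgf14 in 46 and Adgrv1 in 64; Fgf14 and Adgrv1 shared 23 wells. Of 354 wells, 232 had none of the 5, 46 had at least 2 and 22 at least 3. Its sum had an r of 0.30 with the long-gene share, 0.19 with the neural progenitor list and -0.08 with the mesenchyme list. That r was no higher than for the 21 genes of the second module, which includes Gm42418 and had 0.20 with the same list. The group around the neuronal RNA-binding protein Elavl4 held the neuronal splicing factor Srrm4, Nfasc and Psrc1 as well, also at 0.27. Elavl4 and Srrm4 shared 12 wells of the 29 and 26 that had them. At least 2 of the 4 genes were present in 21 wells and at least 3 in 8, and the group's r was 0.22 with the long-gene share and 0.25 with the neuron list, of which Elavl4 is the only member in the group and was left out of the sum. In the E11.5 AGM VE-cadherin-negative wells the mean r of the Rfx4 and Elavl4 groups was 0.03 and 0.07. In the E9.5 AGM VE-cadherin-positive wells it was -0.02 and -0.02, the latter over the 2 of 4 genes that could be measured there. Depth was not equal between wells in this setting, and r with a well's counts was 0.16 and 0.14. A further group, Gpc6, Tenm3, Rtn4, Cux1 and Msi2, had an r of 0.66 with the long-gene share, 0.31 with the somite list, 0.29 with the mesenchyme list and 0.19 with the neural progenitor list. The glypican Gpc6 stood at 742 CPM in this pool and 21.0 CPM in the VE-cadherin-positive pool.

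**Figure D4:**
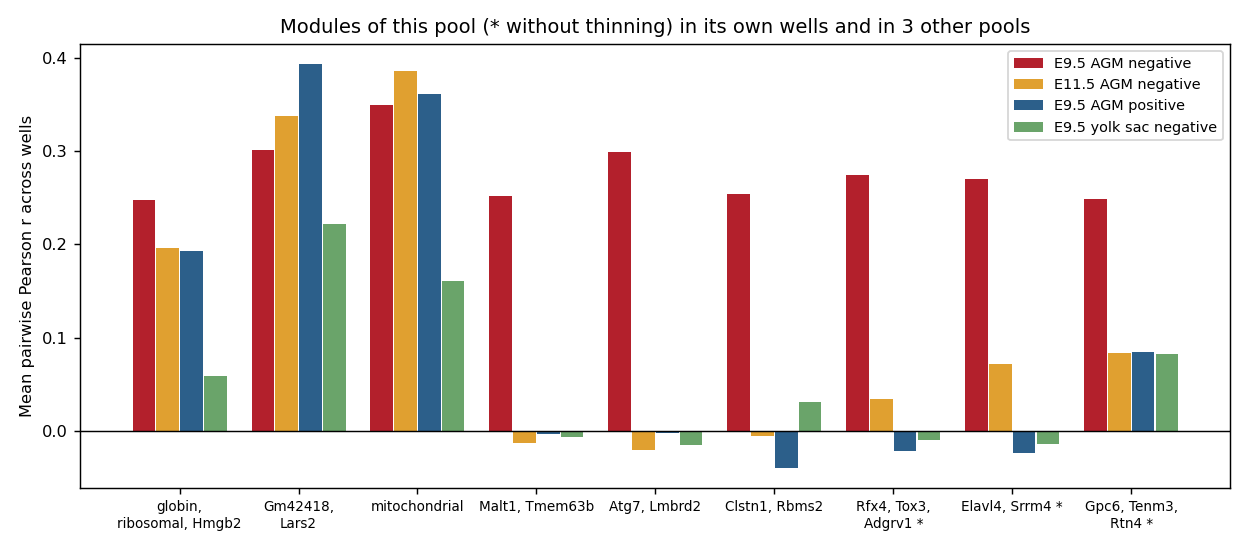
Mean pairwise Pearson r of 9 modules found in the E9.5 AGM VE-cadherin-negative wells (red) and of the same genes in 3 pools that did not choose them; the 3 groups marked with an asterisk were found without thinning. The Gm42418 and mitochondrial modules have mean r of 0.34 or more in the E9.5 positive and E11.5 negative AGM wells, and the groups around Rfx4 and Elavl4 have 0.27 here and at most 0.07 elsewhere.

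Markers of different tissues met in some wells. For mesenchyme with neural progenitor or somite markers the rates were near those of wells without 2 mesenchyme markers. At 2000 counts, 95 wells had 2 markers of no list, 144 of 1 list and 115 of 2 or more of the lists, with the erythroid list left aside. Mesenchyme and neural progenitor markers, at least 2 of each, met in 24 wells (15 to 26 over further draws). That is 16.9% of the 142 mesenchyme wells, while 20.3% of the other 212 wells had 2 neural progenitor markers. Mesenchyme and somite markers met in 16 wells (12 to 27), or 11.3% of mesenchyme wells and 12.7% of the others. Somite and neural progenitor markers met in 9 wells (4 to 8), and neural progenitor and neuron markers in 1 (2 to 8). For both of these pairs the reported draw lies outside the range of the further draws. The sums of the neural progenitor and neuron lists had an r of -0.12 in the reported draw. Wells rich in 1 list were not free of the others: of the 57 wells with at least 3 mesenchyme genes, 14 also had 2 neural progenitor genes and 8 had 2 somite genes, and of the 17 wells with at least 3 neural progenitor genes, 6 had 2 mesenchyme genes. In the VE-cadherin-positive wells of the same tissue and chip, 1.35% of 296 thinned wells had 2 mesenchyme markers, 0.338% had 2 somite, 3.04% had 2 neural progenitor and 2.03% had 2 neuron markers. The 48 wells without a cell held 6452 counts in all, of which 6 were from mesenchyme genes, 0 from somite genes and 1 each from neural progenitor and neuron genes. In CPM the intervals are 341 to 2024 for mesenchyme and 0 to 572 for somite genes, which include the pool's own levels, so these wells are too shallow to measure a background of tissue markers. The part of RNA shared between wells or within the sorted suspension in these joint counts was not tested. Scrublet, a doublet caller, marked 1 of the 1283 sorted wells of the E9.5 chip, and that well is in this pool.

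Against the VE-cadherin-positive pool of the same tissue and chip, the pool was higher in mesenchymal, somitic and neural genes. Of 9964 genes with at least 20 counts over both pools, 21.3% were at least 2-fold higher here and 7.28% at least 2-fold lower. The split depends on scaling, since globins take more of the other pool: the median log2 ratio of all genes was 0.38 on library totals and -0.06 after TMM scaling, and the share of higher among called genes was 74.5% and 51.7%. The largest ratios were those of Pdgfra (log2 7.74, 5.24 to 13.1, 191 counts against 1), Meox1 (7.33), Pax3 (7.03), the adhesion regulator Srgap3 (6.94), the mesenchymal cadherin Cdh11 (6.86), arginase Arg1 (6.75), Sox2ot (6.73), Crabp2 (6.71, 5.73 to 7.93), the netrin receptor Dcc (6.67) and the matrix gene Fras1 (6.54). Arg1 had counts in 148 of 354 wells. The lowest ratios were those of Gngt2 (-6.73), Klhl4, Cldn5, Sox7, Cd38, Egfl7, S1pr1, Exoc3l4, S100a16 and Tie1 (-5.84), each with 1 or 2 counts here. Cldn5, Sox7, Egfl7, S1pr1 and Tie1 are endothelial genes.

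All 13 mesenchyme genes tested were higher here (median log2 ratio 3.91), as were 6 of 7 somite genes (4.19), 12 of 12 Hox genes (2.13), 6 of 7 neural progenitor genes (2.86), 7 of 12 retinoid genes (2.52) and 23 of 28 secreted signals (2.20). Matrix genes were mixed, with 17 of 34 higher and 9 lower. Of neuron genes 7 of 9 were higher, yet the sums were alike, 240 and 214 CPM, because Gap43 had 288 counts in the VE-cadherin-positive pool against 43. All 12 endothelium genes and all 10 erythroid genes were lower. S phase and G2 and M phase genes were near the median of all genes, with 1 of 19 and 0 of 20 higher.

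Against the E9.5 yolk sac VE-cadherin-negative pool, 56% of 10075 genes were higher here and 4.32% lower on library totals. Globins held a median of 38.1% of a yolk sac well, the median log2 ratio of all genes was 1.17, and after TMM scaling it was 0.04, with the higher share of called genes going from 92.8% to 58.1%. Relative to that shift the axial genes stood out. All 10 Hox genes tested (median log2 ratio 5.81), 7 of 7 somite genes (6.47), 7 of 7 neural progenitor genes (5.88) and 9 of 10 retinoid genes (5.11) were higher. Arg1 (8.77), Dcc (7.69), Adgrv1 (7.69), Crabp1 (7.51), Foxp2 (7.43), Sox11 (7.39), Dach1 (7.35) and Irx3 (7.27) were among the 10 largest ratios. Mesenchyme genes as a class were not: 8 of 15 were higher and 5 lower, and the sums were 923 and 891 CPM. The lowest ratios were those of Igfbp6, Ctla2a, Col6a2, Apoa1, Penk, Grap2, Ifi27l2a, Bin2, S100g and Apoa2, and 10 of 11 visceral endoderm genes were lower.

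**Figure D5:**
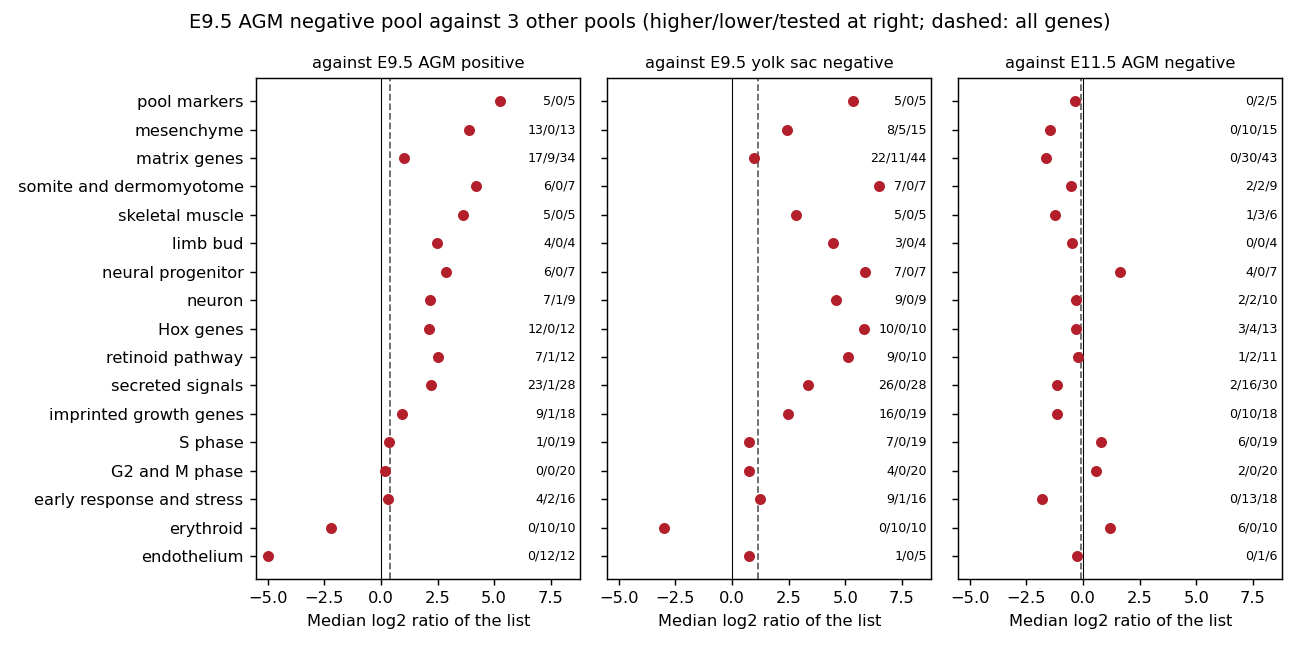
Median log2 ratio of each list's tested genes in the E9.5 AGM VE-cadherin-negative pool over 3 other pools; the dashed line is the median over all genes and the figures at the right of each panel give genes at least 2-fold higher, lower and tested. Matrix genes have 17 higher and 9 lower of 34 against the E9.5 AGM VE-cadherin-positive pool and 0 higher and 30 lower of 43 against the E11.5 AGM VE-cadherin-negative pool.

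Against the same gate 2 days later, the pool had less mesenchymal matrix and more of the progenitor genes. Of 10023 genes tested, 10.9% were higher at E9.5 and 16.2% lower, and the median log2 ratio of all genes was -0.09 on library totals and 0.0037 after TMM scaling. Of 15 mesenchyme genes 10 were lower at E9.5 and none was higher, and of 43 matrix genes 30 were lower and none was higher. Col1a1 was at 38.8 CPM against 379 (log2 ratio -3.29), Col3a1 at 111 against 512 (-2.21), the small proteoglycans Lum at 11.2 against 86.9 (-2.96) and Dcn at 7.06 against 63.1 (-3.16), and Col12a1 at 4.12 against 144 (-5.13). Twist1, Twist2, Prrx2, Meox2 and Pdgfrb were within 2-fold. Neural progenitor genes had 4 of 7 higher at E9.5, with Pax6 at 22.9 CPM (39 counts) against 1 count, Lin28b at 132 CPM against 21.9 (2.59) and Irx3 at 40.01 against 12.8 (1.64). Of 9 somite genes 2 were higher, Pax3 (1.91) and Eya1 (1.21), and 2 lower, among them Ebf3 (-2.05). Crabp2 was higher at E9.5 (441 against 151 CPM), while Crabp1 was at 424 and 363 CPM.

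Imprinted growth genes were lower at E9.5 in 10 of 18, with Igf2 at 375 against 1126 CPM and H19 at 807 against 2167 CPM, and secreted signals in 16 of 30, with Ptn, Cxcl12 and Angpt1 at -1.50, -1.48 and -1.44 and Kitl at 0.12. Early response and stress genes were lower in 13 of 18, Fos at -2.96 and Jun at -1.66, with a median log2 ratio of -1.80. Their sums went the other way, at 3971 CPM here and 3698 CPM at E11.5, with most counts in the chaperones Hspa8 and Hsp90aa1. S phase genes were higher in 6 of 19. The largest single ratios at E9.5 were Enpp6 (6.49), Lnx1 (6.36), Lin28a (6.20), Gapdh (6.12), Ndufb8, Tex21, Klf9, Mrpl23, B4galnt2 and Cpn1. Gapdh, an enzyme of glycolysis that all cells use and that has many near-identical pseudogenes, had 2415 CPM here and 34.7 CPM on the E11.5 chip. The cyclophilin Ppia had 1634 against 245 CPM and the unnamed gene Gm8797 442 against 2.74 CPM. Whether the tables of both chips were counted in the same way is not given in the sources used here and was not tested, which bears on every E9.5 to E11.5 ratio above. The largest in the other direction were Kcnd2 (-6.79), Adgrg6, Il1rapl2, Runx2, Col12a1, Pcdh9, Afp, Pros1, the nuclear factor Nfia (-4.62) and Bcl11a. Stage and chip cannot be told apart in any of these ratios.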

How the data were processed

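The authors deposited 1 table of raw counts per gene and well for each chip, with an annotation of each well. Per the submitters' processing notes, reads were handled with FastQC, cutadapt and STAR on mm10 (GRCm38); versions, the counting tool and whether molecular identifiers were counted are not given in the sources used here. The members, gene lists and naming rules were chosen with earlier results of these data known.

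Wells with at least 500 genes were kept. Counts summed over a pool or cluster were divided by its total (CPM), with exact 95% Poisson intervals; ratios carry exact conditional binomial intervals and 0 was set to a floor of 3 counts. A gene counted as higher or lower at 2-fold or more with at least 20 counts over both groups. No test across samples was possible, with 1 sample per pool. Intervals cover counting error only, since molecules and PCR copies cannot be told apart here. For wells at equal depth 2000 counts were drawn per well (seed 0).

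Clusters came from scanpy 1.11.5: 2000 variable genes, 20 principal components, 15 neighbours, Leiden resolution 1. A cluster was named only with at least 3 markers of a type at 1.5-fold or more and 1 of them among its 10 leading genes, a rule written after clusters had been seen. Correlations are Pearson r of log1p counts; modules need r of 0.3 for a pair, a mean r of 0.2 and 4 genes. TMM factors came from edgeR 4.0.16. Named genes were the pool markers, list members with counts in at least 10% of wells, the 6 leading genes of a cluster, module genes, up to 5 partners of each of 16 anchors and the 10 largest and smallest ratios of each comparison (50 counts or more, and 10% of wells, in the pool where the gene is higher); Pax6, Olig2, Dcn, Lum and other list members in fewer wells were named after their values were seen. Foxf1 and Sox2 were set as anchors but had no row under these names in the E9.5 count table, so they could not be analysed. Other list members also lacked a row: 24 of 39 Hox genes had one. The value of 1 list member is not reported here. The ratio and correlation steps were tested on simulated data. Alternatives covered filters, resolution, depth, scaling and weighting.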

Additional observations from a re-analysis of the deposited data

How the results depend on the processing

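Of 98 alternatives to 19 results, 62 stayed within 1.5 times the reported value. The 354 wells and the 5 pool markers above the VE-cadherin-positive pool were the same under every alternative run for them. The 7 clusters became 2 at resolution 0.5, 16 at 1.5, and, in settings chosen after seeing the data, 21 at resolution 2, 31 at 3, 3 on residuals at 0.5 and 4 among wells of high long-gene share. With 10 principal components, at resolution 3 and in those high-share wells 1 cluster took a name. Of left-out genes, 8 were higher and 0 lower in the 83 wells at a minimum of 50 counts, and 2 lower with wells weighted equally. Pairs at r of 0.3 numbered 208 by Spearman, 111 (3 modules) at 1000 counts and 1638 (11 modules) without thinning. At 1000 counts the joint wells were 3 for mesenchyme with neural progenitor, 5 for mesenchyme with somite and 0 for somite with neural progenitor. Over 10 draws added later they went down to 15, up to 27 and down to 4, neural progenitor with neuron spanned 2 to 8, and up to 2 anchors had a partner. Against the VE-cadherin-positive pool TMM left 1240 genes higher and 1159 lower, and a minimum of 50 counts 1126 and 461. Against the yolk sac, leaving out globin, mitochondrial and Gm42418 counts gave 3384 and 779, and TMM 2223 and 1606. Against E11.5 a minimum of 50 counts gave 648 and 851. Fewer genes are tested at 50 counts; for the others the cause was not tested. No paired analysis was possible because each pool is 1 sample. A median of 4396 counts per well limits the lists to a few counts per well.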
